A study of Mus musculus with 12 samples.

Results

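The genes described here are Nr1d1, Nr1d2, Dbp, Tef, Hlf, Bhlhe40, Bhlhe41, Ciart and Nfil3, a set of transcription regulators at the output of the circadian clock. These 9 genes were taken by symbol from the 31053 genes listed in each library and were followed across all nuclei, across 9 cell classes and across the 4 groups of mice. The set was chosen by measured values: the levels of Nr1d1 and Dbp in fibroblasts of the bleomycin groups pointed to it. Every comparison that involves a bleomycin group is therefore a description of the members and carries no test of whether they changed.

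Single-nucleus RNA sequencing was performed on the frozen lungs of 12 wild-type C57BL/6J mice, with 1 library for each mouse. Bleomycin, a cytotoxic agent used to induce pulmonary fibrosis in rodents, or phosphate-buffered saline (PBS) was instilled into the trachea, and the mice were then dosed by mouth each day with NVP-BHG712, an inhibitor of the EphB4 receptor tyrosine kinase, or with its vehicle of N-methyl-2-pyrrolidone and polyethylene glycol. The groups are PBS_Vehicle (PBS, then vehicle), PBS_NVP-BHG712 (PBS, then inhibitor), Bleo_Vehicle (bleomycin, then vehicle) and Bleo_NVP-BHG712 (bleomycin, then inhibitor), with 3 mice in each. All lungs were frozen, and the nuclei were freed by douncing and sorted on the DNA dye DAPI, so the values describe nuclear RNA and not the whole transcript pool of a cell. The hour at which the lungs were collected was not given in the sources used here, so whether the groups differed in time of day was not tested. What could be compared was whether all cell classes of the same mice moved together.

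In the clock of most mammalian cells, the activators CLOCK (or NPAS2) and BMAL1 (the product of Arntl) bind E-box sequences and switch on their own repressors, the Per and Cry genes. They also drive Nr1d1 and Nr1d2, which encode the nuclear receptors REV-ERB alpha and REV-ERB beta, repressors of Arntl, Npas2 and Nfil3 among others. Dbp, Tef and Hlf encode the PAR bZIP activators, which bind D-box sequences, and Nfil3 encodes E4BP4, a repressor that competes for the same sequences. Bhlhe40 and Bhlhe41 encode DEC1 and DEC2, repressors that bind E-boxes, and Ciart encodes CHRONO, a repressor that binds BMAL1. In the lung this clock is known for its part in club cells and macrophages, where REV-ERB alpha restrains inflammatory genes.

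The members lie on 7 chromosomes of the mouse build GRCm38 (mm10). Nr1d1 (ENSMUSG00000020889) spans chr11:98767932-98775333 on the minus strand and Nr1d2 (ENSMUSG00000021775) chr14:18204054-18239127 on the minus strand. Dbp (ENSMUSG00000059824) spans chr7:45705088-45710203, Tef (ENSMUSG00000022389) chr15:81802421-81826863, both on the plus strand, and Hlf (ENSMUSG00000003949) chr11:90336536-90390895 on the minus strand. Nfil3 (ENSMUSG00000056749) lies at chr13:52967209-52981073 and Ciart (ENSMUSG00000038550) at chr3:95878503-95882251, both on the minus strand. Bhlhe40 (ENSMUSG00000030103, chr6:108660629-108666925, plus strand) and Bhlhe41 (ENSMUSG00000030256, chr6:145858243-145865558, minus strand) share a chromosome. The end of Nr1d1 overlaps that of Thra, the thyroid hormone receptor alpha gene on the opposite strand, over 1075 bases (chr11:98767932-98769006), and the reads keep their strand, so both genes were counted apart.

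Promoter sequences from RefSeq (GRCm38.p6) matched 8 of the 9 members, with 2 start sites for Tef and none for Bhlhe40. The 250 bases before each start site were searched on both strands for the E-box CACGTG, the D-box cores TTATGTAA and TTACGTAA, and the REV-ERB or ROR half-sites TAGGTCA and TGGGTCA. No motif overlapped another. Shown here are the windows that differ most in what they hold: Ciart with 3 E-boxes, the inner start site of Tef with 1 E-box, Nfil3 with 1 half-site, and Nr1d1 with no match. Motif letters are in capitals, every sequence reads 5′ to 3′ along the strand of its gene, and the last 5 bases of the Nfil3 window were left off because they reach further into an annotated exon.
Ciart, chr3:95882229-95882478, minus strand: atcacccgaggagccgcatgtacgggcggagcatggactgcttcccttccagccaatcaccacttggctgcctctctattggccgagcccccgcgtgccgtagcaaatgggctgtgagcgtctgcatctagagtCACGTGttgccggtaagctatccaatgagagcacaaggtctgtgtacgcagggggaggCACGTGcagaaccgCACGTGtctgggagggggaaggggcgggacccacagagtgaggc
Tef, inner start site, chr15:81811164-81811413, plus strand: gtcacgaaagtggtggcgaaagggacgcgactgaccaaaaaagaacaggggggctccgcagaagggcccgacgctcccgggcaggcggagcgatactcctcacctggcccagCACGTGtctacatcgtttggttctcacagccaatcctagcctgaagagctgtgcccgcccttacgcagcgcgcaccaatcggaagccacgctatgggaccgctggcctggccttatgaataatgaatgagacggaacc
Nfil3, chr13:52981045-52981289, minus strand: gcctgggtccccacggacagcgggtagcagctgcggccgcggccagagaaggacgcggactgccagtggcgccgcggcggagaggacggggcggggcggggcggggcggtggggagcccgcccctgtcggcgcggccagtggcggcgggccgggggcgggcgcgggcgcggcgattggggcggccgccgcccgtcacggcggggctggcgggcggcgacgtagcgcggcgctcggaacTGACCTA
Nr1d1, chr11:98775378-98775627, minus strand: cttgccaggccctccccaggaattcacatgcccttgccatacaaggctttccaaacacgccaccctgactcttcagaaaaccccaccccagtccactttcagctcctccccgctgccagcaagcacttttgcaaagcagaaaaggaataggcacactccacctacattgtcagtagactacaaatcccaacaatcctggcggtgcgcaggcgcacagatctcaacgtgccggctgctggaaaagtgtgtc

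The E-boxes of Ciart began 116, 58 and 44 bases before its start site, those of Tef 127 and 138 bases before its 2 start sites, and that of Bhlhe41 153 bases before its own. The half-site of Nfil3, TAGGTCA on the minus strand of the window, began 12 bases before the start. Among 32851 promoter windows of the same length 6.02% held the E-box, 0.819% and 0.113% held the D-box cores TTATGTAA and TTACGTAA, and 2.23% and 3.24% held TAGGTCA and TGGGTCA. A match is a run of letters and not a site shown to be bound. The windows of Nr1d1, Nr1d2, Dbp and Hlf held none of these letters, which says nothing of sites elsewhere in those genes.

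**Figure D1:**
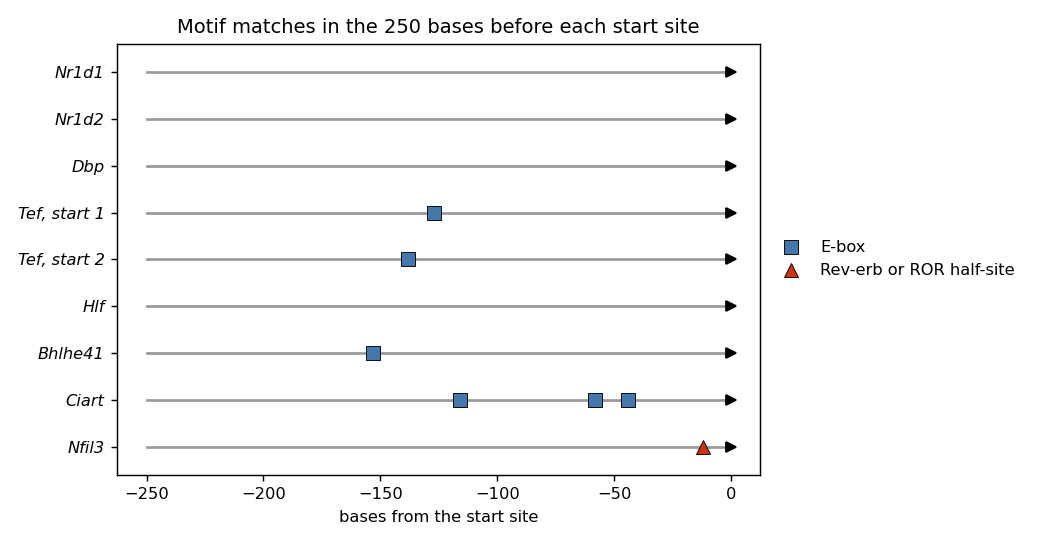
Motif matches in the 250 bases before each start site of the 8 members with a promoter sequence, with distance from the start site in bases on the horizontal axis. Squares mark E-boxes and the triangle marks a REV-ERB or ROR half-site; Ciart holds 3 E-boxes, and 4 of the 9 windows hold no match.

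After filtering, 44611 nuclei were kept, and they held from 3521537 to 46457084 unique molecular identifiers (UMIs, each counting 1 captured RNA molecule) per library. Cell classes were named from marker genes, and the 9 classes with at least 20 nuclei in every library were used: club (1895 nuclei), ciliated (1746), type I alveolar (6996), type II alveolar (4681), fibroblast (9438), smooth muscle (730), general capillary (5701) and aerocyte capillary cells (2805) and alveolar macrophages (3664). Every cluster in these classes had at least 4 markers of its class at 2-fold or more over the other nuclei. The Bleo_Vehicle libraries stood apart from the rest in quality, since mitochondrial UMIs made up a median of 2.56%, 1.32% and 0.668% of a barcode in them and at most 0.0496% in the other libraries. The labels give those libraries batch numbers 6, 6 and 7, the Bleo_NVP-BHG712 libraries run number 4 and the PBS libraries run numbers 1 to 3. No run or batch therefore holds bleomycin mice of both treatments, and batch and group cannot be told apart wherever a bleomycin group is compared. Levels are given as CPM, the UMI counts of the summed nuclei of a library scaled to a common total, where fewer cells of a type and less RNA per cell cannot be told apart, and a gene was called at an adjusted p-value under 0.05.

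In short, Nr1d1 and Dbp were low in Bleo_Vehicle in all nuclei and in each class where they could be tested. Nr1d2 and Tef were low in some classes and not in others, and Nfil3 and Bhlhe40 were high in all nuclei but not in every class tested. Hlf and Bhlhe41 were lower on average than in PBS_Vehicle in all nuclei and in each class tested, without a call in all nuclei. Ciart overlapped with both groups it was compared with. In all nuclei 2 of the 9 members were called higher and 1 lower in Bleo_NVP-BHG712 than in Bleo_Vehicle, where 5.51% of 14442 genes were called. Between Bleo_Vehicle and PBS_Vehicle 1 member was called higher and 1 lower in Bleo_Vehicle, where 2.44% of genes were called. The median log2 difference of the members was 0.73 in the first comparison and -0.73 in the second, against -0.05 and 0.007 over all genes tested. Both comparisons use the same Bleo_Vehicle libraries, so their opposite signs are not independent of each other. The 2 groups did not overlap for 7 of 9 members in the first and for 5 of 9 in the second, where 32.9% and 20.3% of all genes did not overlap.

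**Figure D2:**
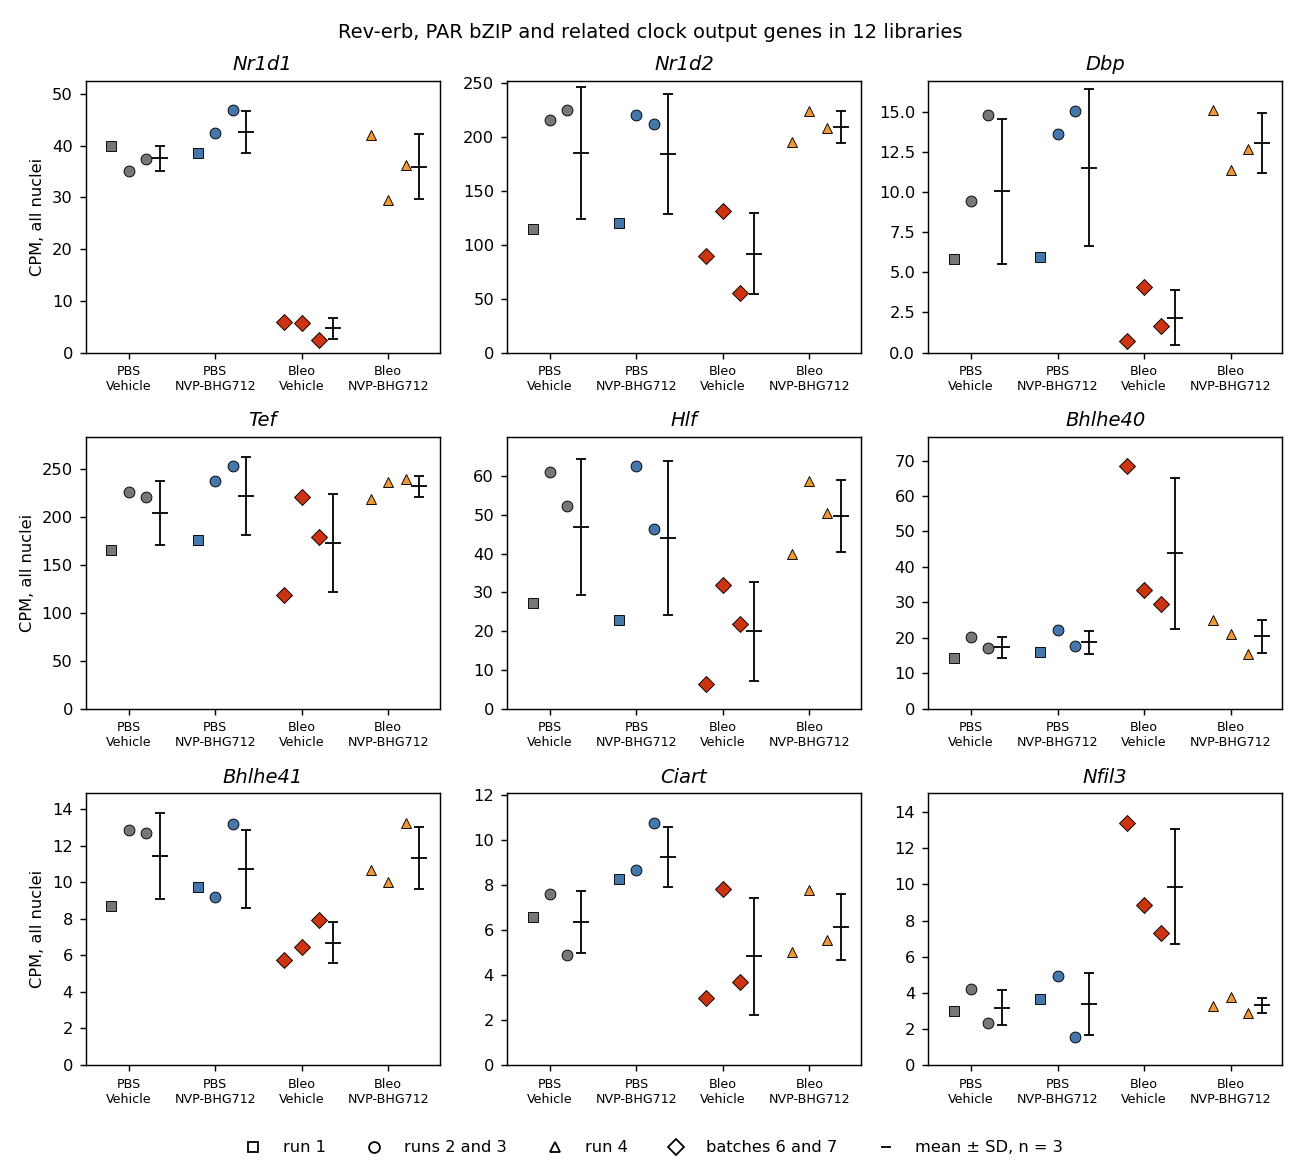
Level of each of the 9 members in CPM over all nuclei, with 1 symbol per library in the 4 groups, the symbol shape giving the run or batch, and a bar for the mean ± SD (n = 3). Nr1d1 lies between 2.38 and 5.97 CPM in the Bleo_Vehicle libraries and between 29.5 and 46.9 in the other 9.

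Nr1d1, the gene of REV-ERB alpha, had 40.0, 35.1 and 37.5 CPM in the PBS_Vehicle libraries and 38.6, 42.5 and 46.9 in the PBS_NVP-BHG712 libraries. The Bleo_Vehicle libraries held 5.97, 5.76 and 2.38 CPM, from 24, 76 and 113 UMIs. In Bleo_NVP-BHG712 the values were 42.1, 29.5 and 36.3 CPM, of which the first and the third lay within the range of the PBS mice and the second below it. Bleo_Vehicle thus lay below all other libraries with no overlap, 8.63-fold under PBS_Vehicle (log2 -3.11 ± 0.30, SE) and 8.23-fold under Bleo_NVP-BHG712 (log2 3.04 ± 0.30 for the latter over the former). The difference between the effects of NVP-BHG712 with and without bleomycin was 2.86 ± 0.40 on the log2 scale, and Nr1d1 was the only member called for it, against 0.298% of genes. Among the 19 alternative settings of that comparison, the call was lost without Bleo_NVP-BHG712 replicate 1. Thra, which shares its end with Nr1d1, differed by -0.54 ± 0.20 between Bleo_Vehicle and PBS_Vehicle and was not called.

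The same drop of Nr1d1 appeared in every class with enough counts. In PBS_Vehicle mice its level was 78.9 CPM ± 43.8 (SD, n = 3) in smooth muscle, 68.2 ± 24.0 in fibroblasts, 38.0 ± 4.42 in club cells, 33.9 ± 0.995 in type I and 33.8 ± 8.77 in type II cells, and 8.54 ± 3.26 in alveolar macrophages. Smooth muscle and fibroblasts did not differ beyond their spread, nor did club, type I and type II cells. Fibroblasts held 95.9, 55.4 and 53.2 CPM in PBS_Vehicle, 2.60, 8.38 and 5.27 in Bleo_Vehicle and 68.5, 51.7 and 58.4 in Bleo_NVP-BHG712. Type II cells held 24.1, 36.2 and 41.1 CPM in PBS_Vehicle, 0, 3.98 and 2.43 in Bleo_Vehicle, the first of these from a library with no Nr1d1 UMI in type II cells, and 34.3, 38.6 and 36.2 in Bleo_NVP-BHG712. In both classes the Bleo_Vehicle libraries lay below all others.

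Across the 5 classes tested, Nr1d1 was higher in Bleo_NVP-BHG712 than in Bleo_Vehicle by between 2.60 ± 0.67 in ciliated and 3.68 ± 0.45 in type II cells on the log2 scale, with no overlap in any of the 5, where 24.0% of all gene and class pairs did not overlap. Bleo_Vehicle lay under PBS_Vehicle by between -2.03 ± 0.67 in ciliated cells and -3.53 ± 0.30 in fibroblasts, again without overlap in the 5, against 19.6% of all pairs. A quasi-likelihood F test of whether the size of the difference varied between the 9 classes, with the mouse as a block, did not pass for Nr1d1 in either comparison (edgeR adjusted p = 0.492 and 0.101). It passed in 1 and 2 of 18 alternative settings, at a lowest adjusted p of 0.0314 and 0.00514. A p-value above the threshold does not show that the classes were equal. Values in the 4 classes too sparse to test are a description. Smooth muscle held 0, 0 and 1 UMIs of Nr1d1 in Bleo_Vehicle against 24, 7 and 1 in PBS_Vehicle, and aerocytes 0, 2 and 2 against 17, 4 and 4. Counts this near the floor do not show whether the groups of these 2 classes overlapped. General capillary cells held 9.26, 6.53 and 1.88 CPM in Bleo_Vehicle, below the 12.0 to 16.2 of PBS_Vehicle but overlapping with the 18.3, 2.17 and 22.1 of Bleo_NVP-BHG712. Alveolar macrophages held 1.90, 5.26 and 1.65 CPM in Bleo_Vehicle, from 1, 5 and 6 UMIs, against 8.73, 5.19 and 11.7 in PBS_Vehicle, which overlapped.

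Over the members and classes together, 41 of 81 pairs had enough counts to test. Of these, 10 were called higher and 2 lower in Bleo_NVP-BHG712 than in Bleo_Vehicle, where 4.02% of all gene and class pairs were called, and 2 were called higher and 9 lower in Bleo_Vehicle than in PBS_Vehicle, against 3.18%. Nr1d1 accounted for 4 of the 10 and 4 of the 9. The 2 lower in the first comparison and the 2 higher in the second were Tef in alveolar macrophages and Nfil3 in fibroblasts. With Bhlhe40 in type I cells and Ciart in fibroblasts, these are the 4 of 41 pairs that reached the count minimum only through Bleo_Vehicle, where they are high, so that their calls support nothing. Of the 12 fits that each left out 1 library, none lost the Nr1d1 calls in all nuclei, fibroblasts or type II cells, while the type I calls were lost in 8 and 9 of them and the club calls in 2 and 1.

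**Figure D3:**
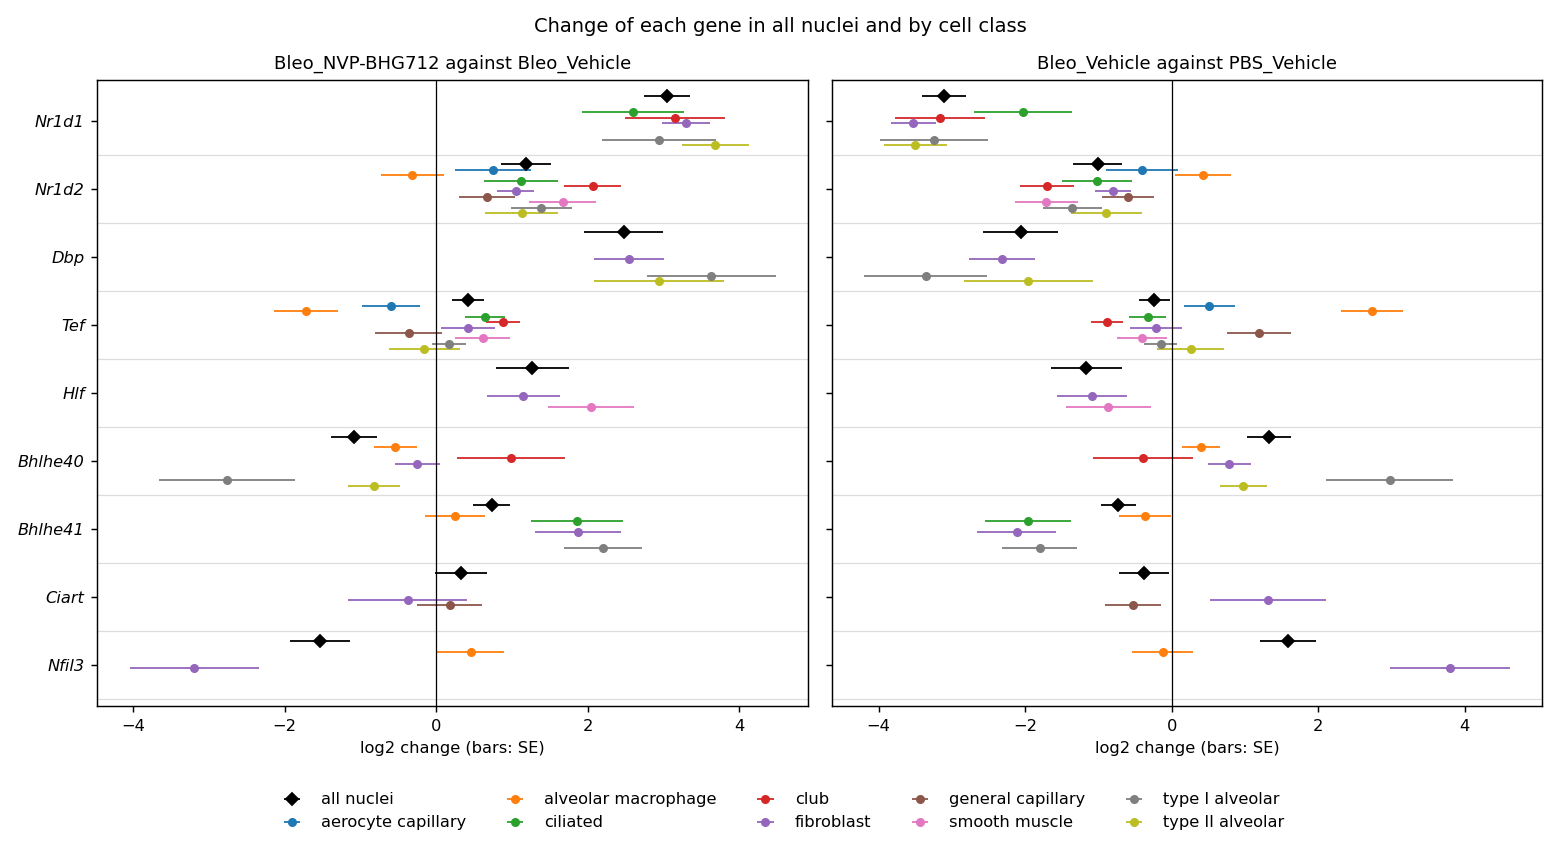
Log2 difference of each member in all nuclei (black diamonds) and in each cell class tested (colored circles), with bars of 1 SE, for Bleo_NVP-BHG712 against Bleo_Vehicle on the left and Bleo_Vehicle against PBS_Vehicle on the right. Nr1d1 and Dbp lie on 1 side of 0 in every class tested, while Tef in alveolar macrophages lies at -1.72 on the left and 2.74 on the right, opposite to its value in club cells.

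Nr1d2, the gene of REV-ERB beta, differed less than its partner and less evenly. Its levels were 115, 216 and 225 CPM in PBS_Vehicle, 120, 220 and 212 in PBS_NVP-BHG712, 89.3, 131 and 55.3 in Bleo_Vehicle and 195, 224 and 208 in Bleo_NVP-BHG712. The bleomycin groups did not overlap, but PBS_Vehicle 1 lay between the Bleo_Vehicle libraries. The log2 difference was 1.19 ± 0.33 for Bleo_NVP-BHG712 over Bleo_Vehicle and -1.01 ± 0.33 for Bleo_Vehicle over PBS_Vehicle, and neither was called. By class the first difference ran from -0.32 ± 0.41 in alveolar macrophages to 2.07 ± 0.38 in club cells, with 8 of 9 classes above 0, and club cells and fibroblasts (1.05 ± 0.24) were called. The fibroblast call was lost when any 1 of the 3 Bleo_NVP-BHG712 libraries was left out, and the club call in none of the 12 fits. Club cells held 178, 288 and 287 CPM in PBS_Vehicle, 190, 101 and 43.5 in Bleo_Vehicle and 307, 299 and 347 in Bleo_NVP-BHG712. Alveolar macrophages held 41.9, 49.3 and 54.6 CPM in PBS_Vehicle, 39.9, 103 and 46.1 in Bleo_Vehicle and 51.7, 72.2 and 27.0 in Bleo_NVP-BHG712, so that the groups overlapped there.

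The size of the Nr1d2 difference varied between classes beyond the spread within them (edgeR adjusted p = 0.000278 for Bleo_NVP-BHG712 against Bleo_Vehicle and 0.000179 for Bleo_Vehicle against PBS_Vehicle). Of all genes tested in this way, 13.1% and 16.8% passed in these comparisons, so varying between classes was common, and 3 and 4 of the 9 members did. The result for Nr1d2 held in 17 of 18 and 18 of 18 alternative settings. The exception was the fit without alveolar macrophages, in which the adjusted p of the first comparison was 0.0717. Without fibroblasts, the class whose values pointed to these genes, it was 0.000532.

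Dbp, a PAR bZIP gene with a strong daily rhythm in many tissues, had 5.86, 9.45 and 14.8 CPM in PBS_Vehicle and 5.94, 13.6 and 15.1 in PBS_NVP-BHG712. Bleo_Vehicle libraries held 0.746, 4.09 and 1.69 CPM, from 3, 54 and 80 UMIs, and Bleo_NVP-BHG712 libraries 15.1, 11.4 and 12.7. The Bleo_Vehicle values lay below all others, at a log2 difference of 2.47 ± 0.52 from Bleo_NVP-BHG712, which was called, and of -2.06 ± 0.52 from PBS_Vehicle, which was not. The call was lost when any 1 of the 3 Bleo_NVP-BHG712 libraries was left out. In the 3 classes tested the first difference was 2.55 ± 0.46 in fibroblasts, 2.94 ± 0.86 in type II and 3.63 ± 0.85 in type I cells, without overlap in any of them. Fibroblasts held 14.0, 9.90 and 21.1 CPM in PBS_Vehicle, 0, 4.69 and 2.52 in Bleo_Vehicle and 17.4, 17.5 and 17.1 in Bleo_NVP-BHG712. No difference between classes was detected for Dbp (edgeR adjusted p = 0.193 and 0.117).

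Tef, which encodes another PAR bZIP activator, lay lower in Bleo_Vehicle than in PBS_Vehicle in 5 of 9 classes and higher in 4. Only club cells were called lower. Only alveolar macrophages were called higher, and they reached the count minimum only through Bleo_Vehicle, so that call supports nothing. In all nuclei it had 166, 226 and 222 CPM in PBS_Vehicle, 176, 238 and 253 in PBS_NVP-BHG712, 119, 221 and 179 in Bleo_Vehicle and 220, 237 and 240 in Bleo_NVP-BHG712, with overlapping groups and no call. In PBS_Vehicle mice Tef stood highest in club cells (495 CPM ± 62.8, SD, n = 3) and type I cells (370 ± 37.2) and lowest in alveolar macrophages (12.1 ± 3.22). Club cells held 454, 567 and 464 CPM in PBS_Vehicle, 138, 341 and 253 in Bleo_Vehicle and 390, 530 and 553 in Bleo_NVP-BHG712. Bleo_Vehicle was the lowest group there without overlap (log2 -0.88 ± 0.22 against PBS_Vehicle and 0.88 ± 0.22 for Bleo_NVP-BHG712 over it, both called), though each call was lost in 3 of the 12 fits without 1 library.

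In alveolar macrophages the order of the Tef values was the opposite. The PBS_Vehicle libraries held 9.16, 15.6 and 11.7 CPM, the PBS_NVP-BHG712 libraries 19.9, 22.7 and 39.0, the Bleo_Vehicle libraries 78.0, 99.9 and 48.3, from 41, 95 and 176 UMIs, and the Bleo_NVP-BHG712 libraries 11.5, 18.7 and 33.0. Bleo_Vehicle was the highest group without overlap, by 2.74 ± 0.42 over PBS_Vehicle on the log2 scale and with Bleo_NVP-BHG712 lower by -1.72 ± 0.42. This pair reached the count minimum only through the Bleo_Vehicle libraries, so its values are a description. The same was seen within the single cluster that held 84.0% of these nuclei in Bleo_Vehicle and 95.2% to 96.6% in the other groups. There Tef was at 63.0, 94.7 and 42.8 CPM in Bleo_Vehicle and between 9.25 and 16.0 in PBS_Vehicle. The inhibitor groups came closer, at 16.0 to 35.6 CPM in PBS_NVP-BHG712 and 12.6 to 35.5 in Bleo_NVP-BHG712, the latter from 2, 7 and 11 UMIs. Markers of other classes moved the same way in the macrophages. The 9 type I markers summed to between 357 and 447 CPM in Bleo_Vehicle macrophages, against 99.0 to 141 in PBS_Vehicle and 81.5 to 162 in Bleo_NVP-BHG712, and to between 5974 and 10899 in Bleo_Vehicle type I cells themselves. The 8 club markers summed to between 461 and 1012 CPM in Bleo_Vehicle macrophages, against 94.1 to 361 and 44.7 to 115. The 9 type II markers were also highest there, at 563 to 1710 CPM. The 11 fibroblast markers, at 468 to 823 CPM there, overlapped with the 227 to 575 of PBS_NVP-BHG712 macrophages. In PBS_NVP-BHG712 macrophages the type I markers summed to 92.3 to 202 CPM, the club markers to 137 to 450 and the type II markers to 243 to 467. Every listed marker of the 4 classes was detected in both Bleo_Vehicle and PBS_NVP-BHG712 macrophages. The part of this RNA of other classes in the macrophage values of Tef and Nr1d2 was not tested.

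The difference in Tef between classes, macrophages included, passed the F test in both comparisons (edgeR adjusted p = 0.000479 for Bleo_NVP-BHG712 against Bleo_Vehicle and 1.3e-07 for Bleo_Vehicle against PBS_Vehicle). Without alveolar macrophages the adjusted p was 0.0546 in the first and 0.0018 in the second. Over the 18 alternative settings it passed in 16 and in 18.

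**Figure D4:**
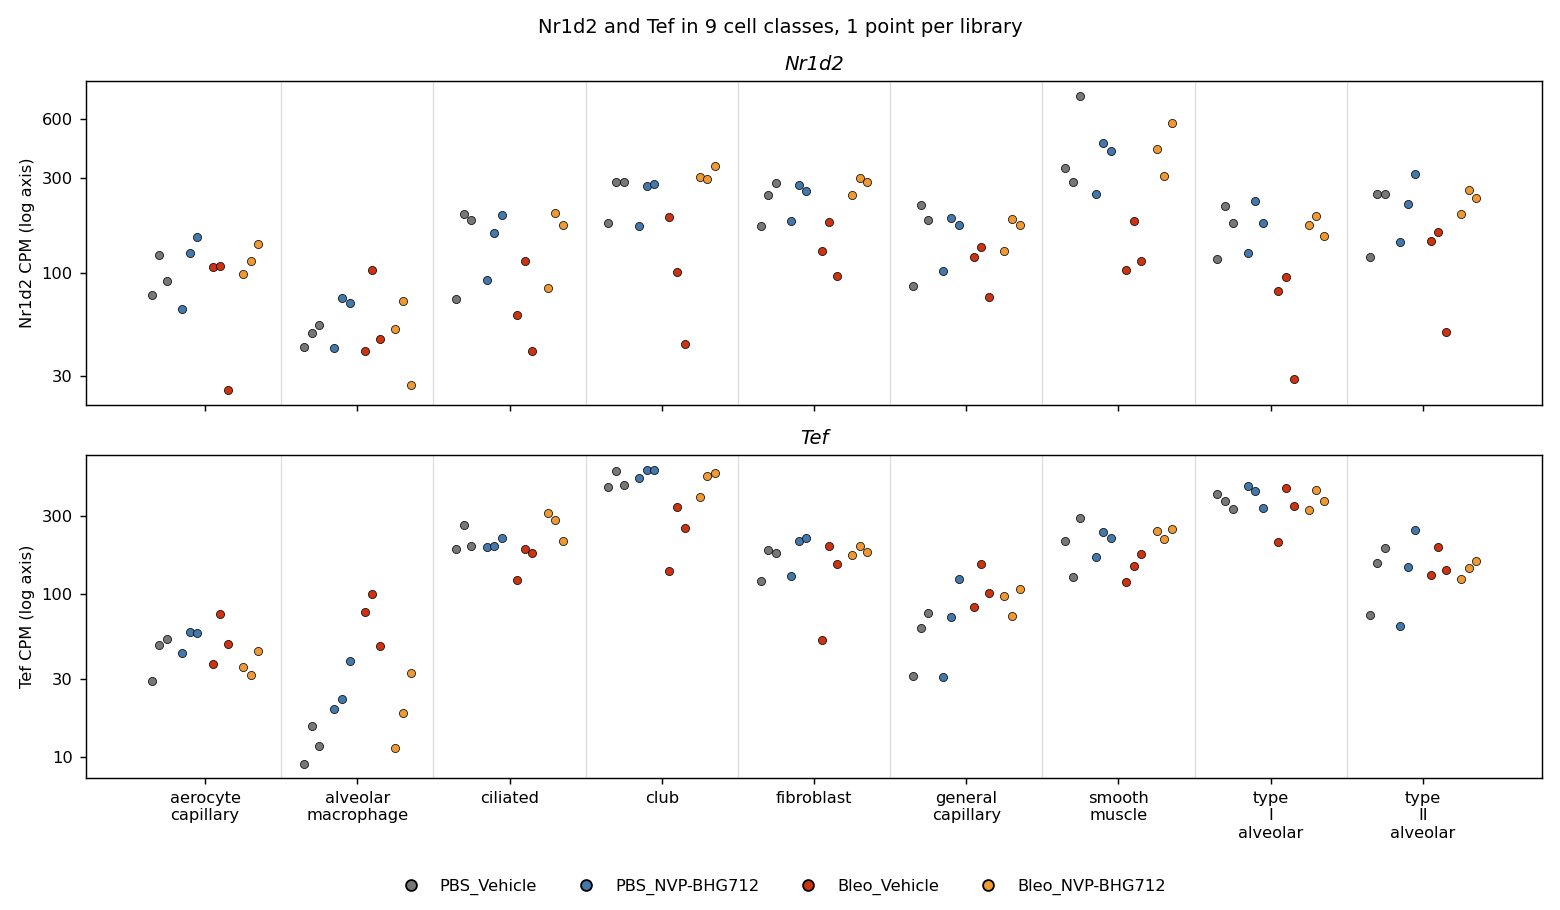
Nr1d2 (top) and Tef (bottom) in CPM on a log axis in 9 cell classes, with 1 point per library colored by group. In club cells the Bleo_Vehicle points of Tef lie at 138 to 341 CPM, below the other groups, and in alveolar macrophages at 48.3 to 99.9 CPM, above them.

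Hlf, the PAR bZIP gene found here mainly in smooth muscle (196 CPM ± 71.9 in PBS_Vehicle, SD, n = 3) and fibroblasts (128 ± 46.5), was at 7.28 CPM or less on average in the other 7 classes. In all nuclei it had 27.1, 60.9 and 52.3 CPM in PBS_Vehicle, 22.9, 62.5 and 46.4 in PBS_NVP-BHG712, 6.46, 31.8 and 21.7 in Bleo_Vehicle and 40.0, 58.7 and 50.4 in Bleo_NVP-BHG712. Bleomycin groups did not overlap (log2 1.27 ± 0.48), PBS_Vehicle and Bleo_Vehicle did (-1.16 ± 0.48), and neither difference was called. In fibroblasts the values were 14.3, 84.8 and 67.7 CPM in Bleo_Vehicle and 99.2, 166 and 130 in Bleo_NVP-BHG712, a log2 difference of 1.15 ± 0.48. The largest of 4 fibroblast clusters held 58.0% of these nuclei in PBS_Vehicle, 59.4% in PBS_NVP-BHG712, 43.4% in Bleo_Vehicle and 56.5% in Bleo_NVP-BHG712. The part of this in the fibroblast values of any member was not tested.

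Nfil3, the gene of the repressor E4BP4 that opposes the PAR bZIP proteins, was higher in Bleo_Vehicle. Its levels were 2.97, 4.23 and 2.33 CPM in PBS_Vehicle, 3.65, 4.93 and 1.54 in PBS_NVP-BHG712, 13.4, 8.87 and 7.31 in Bleo_Vehicle and 3.26, 3.74 and 2.88 in Bleo_NVP-BHG712. All 3 Bleo_Vehicle libraries lay above the other 9. Bleo_NVP-BHG712 was lower than Bleo_Vehicle by -1.54 ± 0.40 on the log2 scale, which was called, and Bleo_Vehicle was higher than PBS_Vehicle by 1.59 ± 0.38, which was not. The call was lost in 9 of the 12 fits without 1 library. In fibroblasts, which hold little Nfil3 in PBS_Vehicle (0.820 CPM ± 0.442, from 7, 1 and 1 UMIs), the Bleo_Vehicle libraries held 24, 33 and 55 UMIs, or 31.2, 11.1 and 6.30 CPM, and Bleo_NVP-BHG712 libraries 1, 6 and 0 UMIs. These fibroblast counts reached the minimum for a test only through Bleo_Vehicle and are a description. Alveolar macrophages, where Nfil3 was highest in PBS_Vehicle (27.6 CPM ± 14.9), held 20.9, 24.2 and 23.1 CPM in Bleo_Vehicle and 28.7, 37.5 and 27.0 in Bleo_NVP-BHG712. The 12 markers of interstitial macrophages or monocytes summed to between 43.2 and 126 CPM in Bleo_Vehicle fibroblasts against 6.76 to 20.2 in PBS_Vehicle fibroblasts, and their part in the Nfil3 value was not tested. The difference between classes passed for Bleo_Vehicle against PBS_Vehicle (edgeR adjusted p = 0.0496), in 5 of 18 alternative settings and not without fibroblasts (0.687), and did not pass for Bleo_NVP-BHG712 against Bleo_Vehicle (0.0516).

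Bhlhe40, the gene of the repressor DEC1 that is also induced by stress and inflammation, was higher in Bleo_Vehicle as well. It stood at 14.4, 20.3 and 17.2 CPM in PBS_Vehicle, 16.1, 22.3 and 17.8 in PBS_NVP-BHG712, 68.4, 33.6 and 29.5 in Bleo_Vehicle and 24.9, 21.0 and 15.6 in Bleo_NVP-BHG712. No Bleo_Vehicle library overlapped with another group, and Bleo_Vehicle 1 was the highest by far. The difference from PBS_Vehicle (1.33 ± 0.30 on the log2 scale) was called and that of Bleo_NVP-BHG712 from Bleo_Vehicle (-1.08 ± 0.31) was not, and the call was lost in 10 of the 12 fits without 1 library. Among the 5 classes that could be tested it was largest in type I cells, which reached the count minimum only through Bleo_Vehicle, at 82.8, 9.82 and 13.8 CPM in Bleo_Vehicle against 1.99, 7.46 and 4.84 in PBS_Vehicle (log2 2.98 ± 0.87), and lowest in club cells (-0.39 ± 0.68). Aerocytes, too sparse to test, held 134, 36.2 and 10.6 CPM in Bleo_Vehicle, from 25, 24 and 20 UMIs, and at most 3.50 CPM in PBS_Vehicle. Alveolar macrophages, which hold most Bhlhe40 in PBS_Vehicle (70.1 CPM ± 27.2), had 70.4, 97.8 and 102 CPM in Bleo_Vehicle, overlapping with PBS_Vehicle. The 10 alveolar macrophage markers summed to between 62.8 and 110 CPM in Bleo_Vehicle type I cells against 15.3 to 66.8 in PBS_Vehicle, and their part in the type I value was not tested. An F test between the classes passed in both comparisons (edgeR adjusted p = 0.0239 and 0.00981), in 12 and 16 of 18 alternative settings. The first did not pass without fibroblasts (edgeR adjusted p = 0.0589). Type I cells, which reached the count minimum only through Bleo_Vehicle, were part of this test, and their part in its result was not tested.

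Bhlhe41, the gene of DEC2, moved the other way from Bhlhe40, with 8.70, 12.8 and 12.7 CPM in PBS_Vehicle, 9.76, 9.20 and 13.2 in PBS_NVP-BHG712, 5.72, 6.44 and 7.92 in Bleo_Vehicle and 10.7, 10.0 and 13.3 in Bleo_NVP-BHG712. The Bleo_Vehicle libraries lay below the rest, but the differences were small and not called in all nuclei (0.73 ± 0.24 and -0.73 ± 0.23). By class the difference of Bleo_NVP-BHG712 from Bleo_Vehicle ran from 0.25 ± 0.39 in alveolar macrophages, where Bhlhe41 is highest, to 2.20 ± 0.52 in type I cells, the only class called, and that call was lost in 4 of the 12 fits without 1 library. Type I cells held 4.97, 10.9 and 9.68 CPM in PBS_Vehicle, 2.88, 1.40 and 2.59 in Bleo_Vehicle and 7.84, 8.98 and 14.8 in Bleo_NVP-BHG712. Type I nuclei were spread differently over their 5 clusters, with 57.3% of them in the largest one in PBS_Vehicle, 92.3% in PBS_NVP-BHG712, 57.0% in Bleo_Vehicle and 79.7% in Bleo_NVP-BHG712, and the part of this in the type I values of any member was not tested.

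Ciart, the gene of CHRONO, was found mainly in general capillary cells (43.5 CPM ± 8.47 in PBS_Vehicle, SD, n = 3, against 10.8 ± 3.41 in the neighboring aerocytes). In all nuclei it had 6.59, 7.62 and 4.87 CPM in PBS_Vehicle, 8.28, 8.69 and 10.8 in PBS_NVP-BHG712, 2.98, 7.81 and 3.71 in Bleo_Vehicle and 5.04, 7.79 and 5.58 in Bleo_NVP-BHG712. Bleo_Vehicle overlapped with both groups it was compared with, and neither difference was called (0.33 ± 0.35 and -0.37 ± 0.34). General capillary cells held 9.26, 42.4 and 26.6 CPM in Bleo_Vehicle, within or below the 33.7 to 48.6 of PBS_Vehicle.

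The comparison of the PBS groups played no part in the choice of the members and could be tested. The main fit did not use the run or the pairing of these samples, so the spread between runs is part of its SE. An absence of calls therefore does not show that nothing changed. With the run number or the replicate number as a block, 0 genes were called as well. NVP-BHG712 given to PBS mice left 0 of the 9 members called in all nuclei, as it did 0% of the 14442 genes, with an edgeR adjusted p of 1.00 for each member and 0 members at an unadjusted p under 0.05 (43 genes). DESeq2 also called 0 members. The 95% interval of the difference from PBS_Vehicle was -0.33 to 0.69 on the log2 scale for Nr1d1, -0.64 to 0.63 for Nr1d2, -0.29 to 0.54 for Tef and -0.72 to 1.14 for Dbp. Ciart was the member without overlap between the groups, where 3.07% of all genes did not overlap, at 0.52 ± 0.33 with an interval of -0.13 to 1.17. By class, 0 of 41 pairs were called, as were 0% of all pairs, and 2 of the 41 had an unadjusted p under 0.05.

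Bleomycin in mice given NVP-BHG712 likewise gave 0 called members, against 0% of genes and 0% of gene and class pairs, and DESeq2 called 0 as well. At an unadjusted p under 0.05 the edgeR count was 0 members and 397 of all genes. Since Bleo_NVP-BHG712 values were known when the members were chosen, these are a description too. The 95% interval of Bleo_NVP-BHG712 over PBS_NVP-BHG712 was -0.77 to 0.27 on the log2 scale for Nr1d1, -0.45 to 0.83 for Nr1d2, -0.73 to 1.14 for Dbp and -0.85 to 0.74 for Nfil3. Ciart was again the member without overlap, lower after bleomycin by -0.56 ± 0.34, where 11.0% of all genes did not overlap.

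The PBS mice themselves fell apart by the run number of the labels for some members, as they did for many other genes. The libraries of run 1 (PBS_Vehicle 1 and PBS_NVP-BHG712 1) were set against the other 4 PBS libraries, from runs 2 and 3, after their values had been seen, and the result is therefore a description. Nr1d2 was at 115 and 120 CPM in run 1 and between 212 and 225 in runs 2 and 3 (log2 -0.88 ± 0.08). Dbp was at 5.86 and 5.94 CPM against 9.45 to 15.1 (-1.14 ± 0.21), Tef at 166 and 176 against 222 to 253 (-0.44 ± 0.08) and Hlf at 27.1 and 22.9 against 46.4 to 62.5 (-1.15 ± 0.15). These 4 of the 9 members were called, where 11.6% of 14343 genes were called. They and Bhlhe40 did not overlap between runs, and neither did 47.4% of all genes, so a lack of overlap was common. By contrast, Nr1d1 stood at 40.0 and 38.6 CPM in run 1 and 35.1 to 46.9 in the others (-0.02 ± 0.12), and Nfil3, Ciart and Bhlhe41 also overlapped. Bhlhe40 did not, at 14.4 and 16.1 CPM against 17.2 to 22.3, and was not called. By class 12 of 39 pairs were called lower in run 1 and 0 higher, against 4.35% of pairs called, and Nr1d2 was below 0 in all 9 classes and called in 6, with -0.58 ± 0.25 in alveolar macrophages. Run 1 libraries were also the deepest of the PBS libraries, with 24232077 and 34750439 UMIs against at most 8051322, and without either of them 0 members were called. Run and depth cannot be told apart here.

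Core clock genes set against these values came from a list of 15. Between bleomycin groups 0 were called higher and 2 lower in Bleo_NVP-BHG712, where 5.51% of all genes were called. Between Bleo_Vehicle and PBS_Vehicle 2 were called higher and 0 lower in Bleo_Vehicle, where 2.44% were called. Cry1, the gene of a repressor of CLOCK and BMAL1, was among them in each case, lower by -1.49 ± 0.19 in the first comparison and higher by 1.52 ± 0.19 in the second. Between runs of the PBS mice 3 of 14 were called higher in run 1 and 2 lower, where 11.6% of all genes were called. Arntl differed by 1.49 ± 0.10, Npas2 by 1.48 ± 0.15, Per3 by -0.65 ± 0.09 and Rora by -0.42 ± 0.09. Arntl, which REV-ERB proteins repress, stood at 71.8 and 71.9 CPM in run 1 and 24.0 to 27.0 in the other PBS libraries, and at 85.3, 39.6 and 57.9 CPM in Bleo_Vehicle and 26.4, 23.8 and 27.7 in Bleo_NVP-BHG712. Cry1 held 49.5, 41.6 and 48.3 CPM in Bleo_Vehicle and at most 20.9 in every other library, run 1 included. The other genes named beforehand were not called between Bleo_Vehicle and PBS_Vehicle. Npas2 differed by 0.88 ± 0.51, Per2 by 0.74 ± 0.26, Usp2 by 0.64 ± 0.255 and Arntl by 0.54 ± 0.47. Per1 differed by 0.24 ± 0.23, Clock by 0.10 ± 0.10, Cry2 by -0.04 ± 0.15 and Per3 by -0.43 ± 0.34. Of 4 genes known to carry REV-ERB response elements (Arntl, Npas2, Clock, Cry1) 1 was called higher in Bleo_Vehicle than in PBS_Vehicle, and 2 in run 1. The shares of all genes called were 2.44% and 11.6%.

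**Figure D5:**
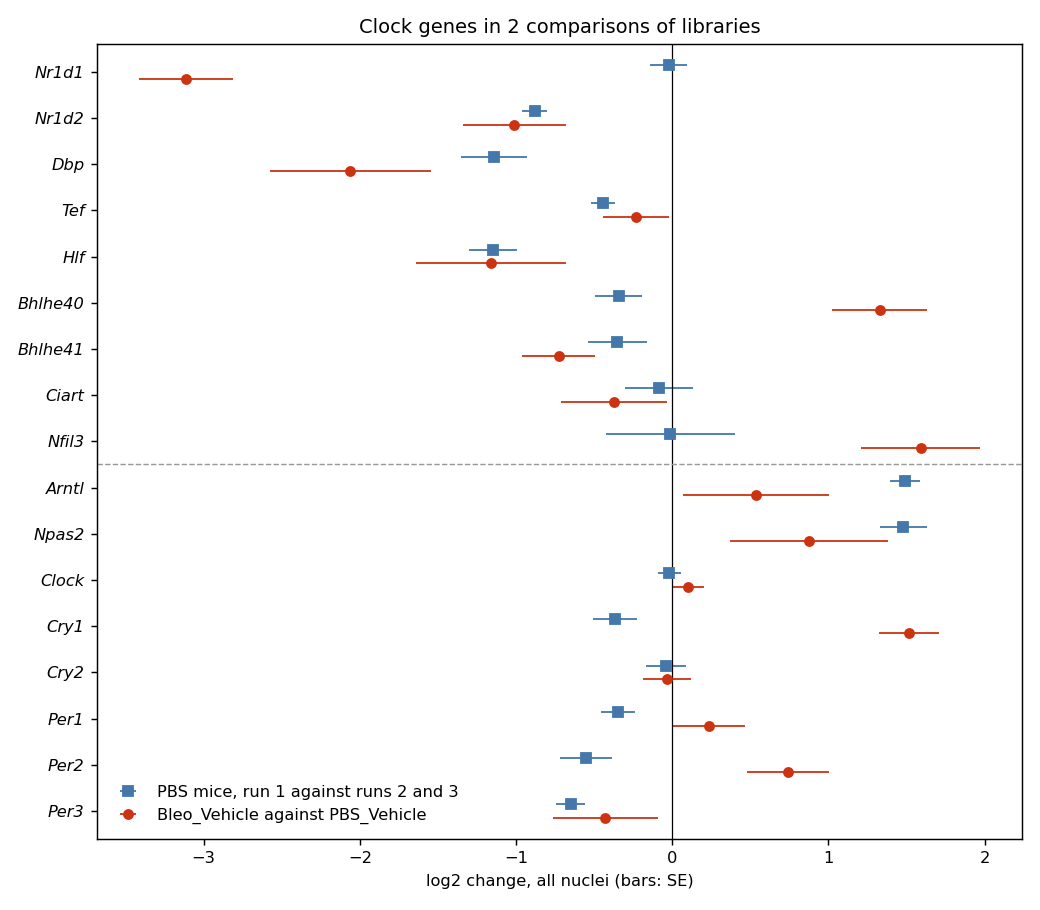
Log2 difference over all nuclei, with bars of 1 SE, of the 9 members (above the dashed line) and 8 core clock genes (below it), for run 1 against runs 2 and 3 in PBS mice (blue squares) and for Bleo_Vehicle against PBS_Vehicle (red circles). The comparisons share the PBS_Vehicle libraries; Nr1d1 lies at -0.02 in the first and -3.11 in the second, Arntl at 1.49 and 0.54, and Cry1 at -0.37 and 1.52.

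Among other lists, 0 of 7 genes known as rhythmic in most mouse organs and 0 of 10 immediate-early genes were called in either comparison with Bleo_Vehicle. Their median log2 differences were 0.54 and 0.64 for Bleo_Vehicle over PBS_Vehicle, against 0.007 over all genes. For Bleo_NVP-BHG712 over Bleo_Vehicle they were -0.49 and -0.86, against -0.05. Of 10 genes induced by glucocorticoids, hormones that themselves follow the day, 2 were called higher in Bleo_Vehicle than in PBS_Vehicle, where 2.44% of all genes were called. In Bleo_NVP-BHG712 3 were called lower than in Bleo_Vehicle, where 5.51% were called. NVP-BHG712 in PBS mice and bleomycin in mice given NVP-BHG712 left 0 genes of these lists called, as they did 0% of all genes.

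The genes whose levels were most like those of Nr1d1 over the 12 libraries were found from the root mean square difference of centered log2 CPM among 8183 genes of at least 10 CPM on average, where the Nr1d1 profile itself has a root mean square of 1.27. The closest were Scn3a (0.513), Fgfr4 (0.676), Kcns3 (0.692), Pde8b (0.706) and Itga8 (0.724). Scn3a, a sodium channel gene, went from a mean of 183 CPM in PBS_Vehicle to 33.8 in Bleo_Vehicle and 204 in Bleo_NVP-BHG712. Nr1d2 ranked 41, Hlf 187, Bhlhe41 317, Tef 1194 and Bhlhe40 7933 in this list, and the other members fell under the minimum level. Most like the Nr1d1 profile turned upside down were Apoe (0.520), Gpnmb (0.524), Fth1 (0.558), Rps29 (0.588) and the mitochondrial gene mt-Nd3 (0.601), and Cry1 ranked 19. Each of the 12 points carries the depth, the run or batch and the mix of cell types of its library, and the likeness is a description of these libraries. Fgfr4 is among the fibroblast markers used here, and the part of the cell mix in the likeness was not tested.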

How the data were processed

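The authors aligned the single-nucleus reads to mm10 and deposited, per the labels and file headers, Cell Ranger UMI counts per gene and nucleus without normalization. Their notes also name Seurat 4.4.1, and the study's methods name DecontX, DoubletFinder and Harmony, whose output was not used here. No column of another series was present (0).

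The 49163 barcodes were filtered to 200 to 6000 genes and at most 5% mitochondrial UMIs (47319 passed), and the 2708 highest doublet scores were left out (Scrublet in scanpy 1.11.5, 5.72% of nuclei, with the share set by library size). The remaining 44611 nuclei were clustered on 1980 variable genes without clock or mitochondrial genes (30 components, 20 neighbors, Harmony over libraries, Leiden resolution 1 with leidenalg 0.10.2) and named from 24 marker lists. Libraries shared at most 0.845% of their barcodes. Each class needed 20 nuclei in every library.

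UMI counts were summed per library, or per class and library, and tested with edgeR 4.0.16 (quasi-likelihood, TMM, filterByExpr, R 4.3.3) over all 12 libraries, with Benjamini-Hochberg adjustment over all genes. The SE is the absolute log2 difference divided by the square root of F, and 95% intervals are 1.96 SE. Member levels are CPM on TMM library sizes, while marker sums and cluster values are CPM on plain totals. The class comparison used 108 class and library profiles with the mouse as a block, and its fits without 1 library reused the dispersion trend of all libraries. Steps were tested on simulated data. Counting UMIs limits precision, and zeros mean no UMI was captured.

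The members and gene lists were chosen with earlier results of these data known. The members were named whatever their values, as were 10 genes around them (Arntl, Npas2, Clock, the Per and Cry genes, Usp2 and Thra). Rora is named after its values were seen, and 1 called gene of the core clock list is not reported here. Samples of the same number correlated in their deviations between PBS_Vehicle and PBS_NVP-BHG712 (r 0.637 to 0.883, 3 pairs, pairing taken from these correlations), and not throughout in the 15 other pairs (-0.201 to 0.470). Nothing in the labels places mice in shared litters. The p-values measure the spread between libraries, in which mouse, run or batch and depth are not told apart. The main fit left out the pairing of the PBS samples, so its spread includes that between runs.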

Additional observations from a re-analysis of the deposited data

Results flagged for a closer look

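The difference between Bleo_NVP-BHG712 and Bleo_Vehicle varied between the 9 cell classes for Nr1d2 (edgeR adjusted p = 0.000278), Tef (0.000479) and Bhlhe40 (0.0239). That between Bleo_Vehicle and PBS_Vehicle varied for Nr1d2 (edgeR adjusted p = 0.000179), Tef (1.3e-07), Bhlhe40 (0.00981) and Nfil3 (0.0496). These comparisons share the Bleo_Vehicle libraries and are descriptions. Tef in macrophages, Nfil3 in fibroblasts and Bhlhe40 in type I cells passed the count minimum only through Bleo_Vehicle. Without alveolar macrophages the edgeR adjusted p was 0.0717 and 0.0387 for Nr1d2 in the first and second comparison, and 0.0546 and 0.0018 for Tef. Without fibroblasts it was 0.0589 and 0.0195 for Bhlhe40, and 0.687 for Nfil3 in the second. The effect of NVP-BHG712 on Nr1d1 in bleomycin mice exceeded that in PBS mice by 2.86 on the log2 scale, given as a description because the members were chosen with bleomycin values known.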

How the results depend on the processing

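No called difference changed sign under any alternative. Differences that were not called changed sign in 17 of 189 values for PBS_NVP-BHG712 against PBS_Vehicle and in 11 of 180 for Bleo_NVP-BHG712 against PBS_NVP-BHG712. The median of all genes shifted by at most 0.0474 on the log2 scale. Of the 9 members, 3 were called between the bleomycin groups, 5 with DESeq2, and 1 to 5 in fits without 1 library, with 1 without any single Bleo_NVP-BHG712 library and 5 without Bleo_Vehicle replicate 3. For Bleo_Vehicle against PBS_Vehicle 2 were called, 5 with DESeq2, 1 with only the 6 libraries compared and 1 to 3 without 1 library. For the difference of the NVP-BHG712 effects 1 was called, 2 with DESeq2 and 0 to 1 without 1 library. By class, 12 pairs were called between the bleomycin groups, 23 with no filter on low counts, 6 with only the 6 libraries compared and 5 to 14 without 1 library (5 without Bleo_NVP-BHG712 replicate 3). For Bleo_Vehicle against PBS_Vehicle 11 pairs were called, 24 with no filter, 6 with only the 6 libraries and 6 to 14 without 1 library (6 without PBS_Vehicle replicate 2). Members differing between classes numbered 3 between the bleomycin groups, 1 without alveolar macrophages and 1 to 6 without 1 library (1 without Bleo_NVP-BHG712 replicate 2, 6 without Bleo_Vehicle replicate 3). For Bleo_Vehicle against PBS_Vehicle they numbered 4, 2 under a stricter nucleus filter (500 UMIs or more, mitochondrial share no higher than 1%), and 3 to 6 without 1 library. The run comparison, chosen after seeing the data, called 4 members and 0 to 4 without 1 library. The causes of these shifts were not tested.

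With the replicate number as a block, 8 members were called between the bleomycin groups, 6 for Bleo_Vehicle against PBS_Vehicle and 2 for the difference of effects, and by class 18 and 17 pairs, but the numbers did not pair these samples. In PBS mice, where they did, the block changed no call (0 members). Over all genes, 796 were called between the bleomycin groups, from 75 without Bleo_NVP-BHG712 replicate 3 to 2231 without Bleo_Vehicle replicate 3, and 1724 with DESeq2. For Bleo_Vehicle against PBS_Vehicle 352 genes were called, from 28 with only the 6 libraries to 1321, and 992 with DESeq2. For the difference of effects 43 were called, from 5 without mitochondrial genes to 358 with the block.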
